A study of Homo sapiens with 33 samples.

Results

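The comparison set RT112 R1 cells kept in PD173074 against parental RT112 cells that had been in the drug for 24 h, with 3 arrays on each side, 6 of the 33 arrays of the series, and all 22411 genes that could be analysed. RT112 is a urothelial carcinoma cell line driven by a fusion of the receptor tyrosine kinase FGFR3 with TACC3, and PD173074 is an inhibitor of the FGF receptors. R1 is 1 resistant population derived from RT112 by long culture at a constant 1 µM of the drug ("R1 PD" below), and parental cells treated for 24 h are called "parental PD"; the dose of that treatment is not given for the arrays. For context, R1 cells taken out of drug for 4 to 6 passages ("R1 no PD") and untreated parental cells ("parental no PD") were used, again with 3 arrays each. Both sides of the main comparison were in drug, so it asks what differs between cells adapted to FGFR inhibition and cells newly exposed to it. The labels give each condition 3 replicates but do not say whether these were separate cultures, so p-values measure the spread between these arrays, which may be technical.

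FGFR3 signals through the RAS, RAF, MEK and ERK kinases and through PI3K and AKT. Among the genes that ERK switches on are its own brakes, the DUSP phosphatases and the SPRY and SPRED proteins, and their mRNA falls within hours when the pathway is blocked. In the urothelium, FGFR3 is a marker of a luminal, epithelial state, which FOXA1, GATA3 and the nuclear receptor PPARG maintain, and cells that escape from inhibitors of receptor tyrosine kinases are often described as flatter, more contractile and richer in extracellular matrix. YAP and TAZ, which sense cell shape and drive the TEAD transcription factors, and SRF, which actin assembly activates, switch on many genes of that state.

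Values are log2 signals of the Affymetrix Human Transcriptome Array 2.0 after RMA, so a difference of 1 is a 2-fold difference. Array medians over all probe sets were between 4.93 and 5.03, and no detection call was at hand for levels near 5, so a fall that ends there is a lower limit. Correlations across genes were 0.9946 to 0.9954 among the parental PD arrays and 0.9926 between R1 PD replicates 1 and 2. R1 PD replicate 3 stood apart from them, with correlations of 0.9829 and 0.9717. The markers of urothelial cells fitted the label, with a median over 10 genes of 13.63 to 14.02 in R1 PD and 13.23 to 13.53 in parental PD. Markers of endothelial and immune cells had medians of 4.45 to 4.55 in R1 PD and 4.37 to 4.61 in parental PD, at the array medians or below.

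Of the 22411 genes, 684 were higher in R1 PD than in parental PD (3.05%) and 903 were lower (4.03%) at an adjusted p under 0.01 in limma's test, which together are 7.08% of the genes. The 24 h treatment itself, set against untreated parental cells, had 24.6% of genes past the same threshold. The median log2 difference over all genes was -0.013. Among the genes that passed, 410 of the higher and 493 of the lower ones differed by at least 1, and 59 and 73 by at least 3. The 3 R1 PD arrays lay wholly above or below the 3 parental PD arrays in every gene that passed, and also in 37.3% of all genes. How many genes passed rested on single arrays. Without parental PD replicate 1, 72 genes were higher and 141 lower, without parental PD replicate 3, 87 and 158, and without R1 PD replicate 3, 927 and 976. A set of 187 genes, 64 higher and 123 lower, passed whichever of the 6 arrays was left out.

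**Figure D1:**
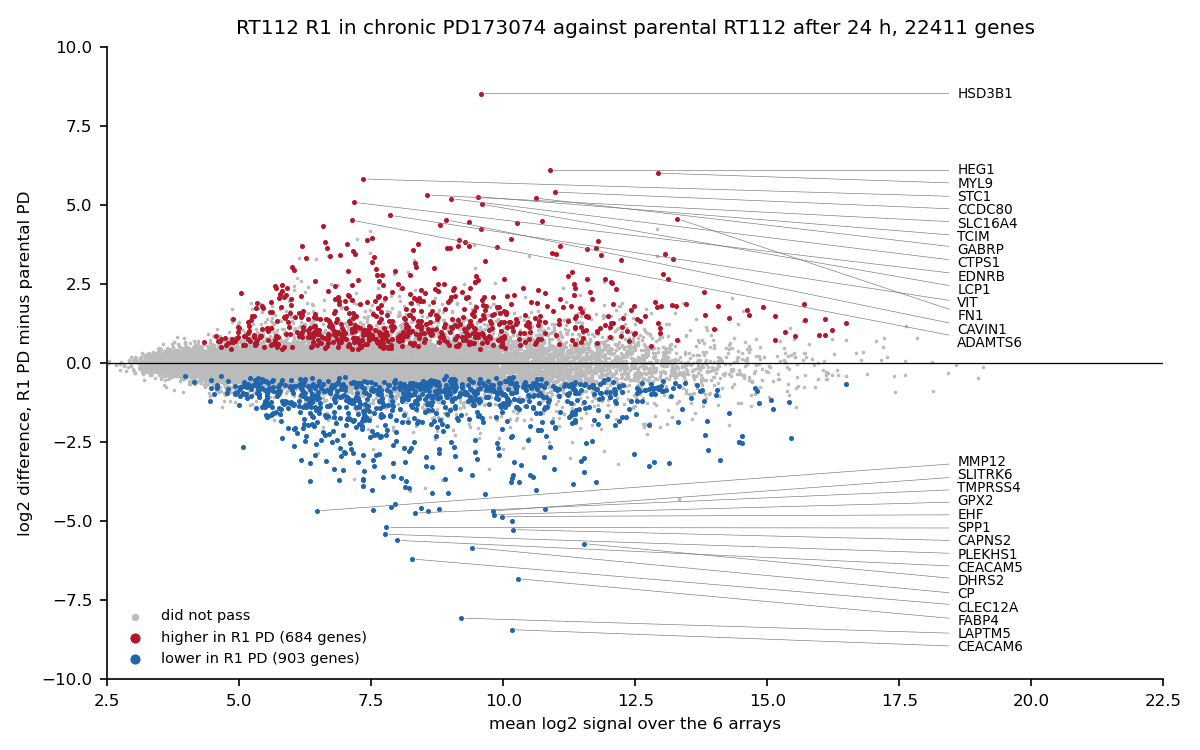
Each point is 1 of 22411 genes, with its mean log2 signal over the 6 arrays on the horizontal axis and the log2 difference of R1 PD minus parental PD on the vertical axis. The 684 genes that were higher (red) and the 903 that were lower (blue) in limma's test at an adjusted p under 0.01 are coloured, and the 15 largest rises and 15 largest falls are named, from HSD3B1 at 8.52 to CEACAM6 at -8.44.

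CEACAM6 had the largest fall. This gene, which encodes a cell adhesion glycoprotein of epithelia, had log2 signals of 5.76, 5.98 and 6.08 in R1 PD, against 14.25, 14.41 and 14.47 in parental PD, a difference of -8.44 (SE 0.11, adjusted p = 9.14e-06). Its relative CEACAM5 had 4.89, 5.27 and 5.41 in R1 PD, against 10.84, 10.47 and 11.09 in parental PD (-5.61, SE 0.20, adjusted p = 0.000252). The groups were far apart in both genes, and in R1 PD CEACAM5 ended at the array medians. LAPTM5, a lysosomal membrane protein known from blood cells, was at 5.14, 4.86 and 5.48 in R1 PD, against 13.03, 13.83 and 12.83 in parental PD (-8.07, SE 0.30, adjusted p = 0.000252). Untreated parental cells already held it at 13.94 to 14.86. None of 9 measured markers of immune cells passed, and their differences ran from -2.39 to 0.21, with the leucocyte gene PTPRC at -0.03. Of these 9 markers 2 lay wholly below the parental PD arrays and 1 wholly above, where 20.3% and 17.0% of all genes did. FABP4, the fatty acid binding protein that PPARG induces, had 7.01, 6.67 and 6.93 in R1 PD, against 13.89, 14.02 and 13.17 in parental PD (-6.82, SE 0.24, adjusted p = 0.000231).

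The other 11 of the 15 largest falls lay between -6.20 and -4.68. They were CLEC12A, a lectin receptor, CP, which encodes ceruloplasmin, the dehydrogenase DHRS2, PLEKHS1, the calpain subunit CAPNS2, SPP1, which encodes osteopontin, the epithelial ETS factor EHF, the glutathione peroxidase GPX2, the surface protease TMPRSS4, SLITRK6 and the matrix metalloproteinase MMP12. MMP12 was at 4.11, 4.06 and 4.22 in R1 PD, against 8.16, 8.78 and 9.49 in parental PD. This is a gene that the 24 h treatment had raised, since untreated parental cells held it at 4.28, 4.58 and 5.31. In 10 of these 15 genes the call held whichever array was left out, and all 15 passed without R1 PD replicate 3.

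The largest rise was in HSD3B1, a dehydrogenase of steroid hormone synthesis. It had 14.53, 12.33 and 14.64 in R1 PD, against 5.60, 5.23 and 5.10 in parental PD, a difference of 8.52 (SE 0.63, adjusted p = 0.00112). MYL9, the regulatory light chain of myosin II, had 15.87, 14.84 and 17.08 in R1 PD, against 9.81, 10.56 and 9.39 in parental PD (6.01, SE 0.60, adjusted p = 0.00273). FN1, which encodes fibronectin, had 15.76, 15.16 and 15.80 in R1 PD, against 10.79, 11.47 and 10.75 in parental PD (4.57, SE 0.26, adjusted p = 0.000609). The R1 PD arrays spread over more than 2 log2 units in HSD3B1 and MYL9, which is wider than among the parental PD arrays, and still lay 3.26 or more above the highest parental PD array in each of the 15 largest rises.

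Also among the 15 largest rises were HEG1 (6.09), a membrane protein of endothelial junctions, STC1 (5.82), the secreted glycoprotein stanniocalcin, the matrix protein CCDC80 (5.41), the monocarboxylate transporter family member SLC16A4 (5.32), TCIM (5.26) and GABRP (5.22), a subunit of GABA receptors. EDNRB (5.08), the endothelin B receptor, LCP1 (5.03), an actin-bundling protein, VIT (4.67), a matrix protein, CAVIN1 (4.53), which builds caveolae, and the secreted protease ADAMTS6 (4.52) completed them with CTPS1 (5.20). CTPS1, which makes CTP for nucleic acid synthesis, was at 11.25, 11.20 and 12.40 in R1 PD, against 6.45, 6.68 and 6.12 in parental PD. Here the parental PD arrays were the ones that stood apart, because untreated parental cells held CTPS1 at 9.78 to 10.22. All 15 passed without R1 PD replicate 3, but in only 4 of them, TCIM, VIT, FN1 and ADAMTS6, did the call hold whichever array was left out.

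FGFR3 itself was lower in R1 PD, at 7.45, 7.47 and 7.61, against 10.92, 10.68 and 10.99 in parental PD (-3.35, SE 0.11, adjusted p = 0.00023), and the call held in each leave-one-out fit. FGFR2 was also lower, at 6.25, 5.79 and 6.14 in R1 PD and 7.41, 7.43 and 7.31 in parental PD (-1.32, SE 0.13, adjusted p = 0.0027), and untreated parental cells were at 6.35 to 6.40. FGFR1 was at 5.26 to 5.46 in R1 PD and 5.23 to 5.33 in parental PD, and these groups overlapped. Of the 15 measured FGF receptors, ligands and partners, the growth factor gene FGF18 was the only higher one (0.82, adjusted p = 0.00363), 6.67% against 3.05% of all genes. FGFR2 and FGFR3 were the 2 lower ones, 13.3% against 4.03%.

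Of 22 measured genes of ERK output and feedback, 1 was higher (4.55%, against 3.05% of all genes) and none was lower, with a median log2 difference of 0.132. Without R1 PD replicate 3, 4 were higher, but that fit also called more of all genes, 927 higher and 976 lower in place of 684 and 903. The phosphatase gene DUSP6 was at 5.60, 6.01 and 5.26 in R1 PD, against 5.88, 5.96 and 5.89 in parental PD, and at 10.38 to 11.17 in R1 no PD and 11.52 to 12.44 in parental no PD. The groups in drug overlapped, and both lay more than 4 log2 units below either group out of drug. The ETS factor ETV5 was at 4.89 to 4.97 in R1 PD and 4.93 to 5.02 in parental PD, which also overlapped. Against untreated parental cells the median of the list was -1.147 in R1 PD and -1.357 in parental PD, and both comparisons share the untreated arrays. After 24 h, 15 of the 22 were lower than in untreated cells, against 13.2% of all genes. The member that passed was IER3, an early response gene that protects from cell death, at 10.60, 10.45 and 10.71 in R1 PD, against 8.79, 8.58 and 8.93 in parental PD (1.82, SE 0.12, adjusted p = 0.000853), and untreated cells held it at 10.61 to 10.75.

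Immediate early genes showed the R1 PD arrays to be unlike each other. EGR1, a zinc finger factor induced within minutes of stimulation, was at 10.81 and 11.64 in R1 PD replicates 1 and 2 but at 5.15 in replicate 3, against 5.35, 5.18 and 5.27 in parental PD. DUSP1, a phosphatase of stress kinases, had 10.19, 11.30 and 7.17 in R1 PD, against 5.27, 5.56 and 5.34 in parental PD. Neither passed over all arrays (adjusted p = 0.173 and 0.0396), and both passed without R1 PD replicate 3 (adjusted p = 0.000429 and 0.000997). JUN, the core subunit of AP-1, was more even, at 9.77, 9.66 and 10.30 in R1 PD, against 7.68, 7.94 and 7.28 in parental PD (2.28, SE 0.23, adjusted p = 0.00289). Of 22 measured AP-1 and immediate early genes, 2 were higher (9.09%, against 3.05% of all genes), JUN and IER3, and none was lower, with a median of 0.775. Without R1 PD replicate 3, 6 were higher, in the fit with 927 higher genes in place of 684.

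Several ligands of other receptor tyrosine kinases were higher. Of 31 measured ligand genes, 5 were higher (16.1%, against 3.05% of all genes) and 1 was lower. EPGN, a ligand of EGFR, was at 7.97, 7.85 and 9.62 in R1 PD, against 5.01, 4.65 and 4.87 in parental PD (3.64, SE 0.48, adjusted p = 0.00596). NRG1, the ligand of ERBB3 and ERBB4, had 7.80, 7.21 and 7.63 in R1 PD, against 6.13, 6.34 and 5.99 in parental PD (1.39, SE 0.18, adjusted p = 0.00527). GAS6, the ligand of the AXL family, had 7.34, 7.42 and 7.31 in R1 PD, against 6.0, 5.95 and 5.90 in parental PD (1.41, SE 0.07, adjusted p = 0.000474). The groups did not overlap in any of the 3. HBEGF (1.05), another ligand of EGFR, and PROS1 (0.68), which also binds the AXL family, were the other higher ligands, and VEGFC (-1.40) the lower one.

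Among 47 measured receptor tyrosine kinases, ROR1 (1.60) was higher and KIT (-1.68), LMTK2 (-1.65) and EPHB6 (-0.66) were lower. These were 2.13% and 6.38% of the list, against 3.05% and 4.03% of all genes. EGFR was at 10.47, 10.45 and 9.84 in R1 PD, against 8.88, 9.39 and 8.76 in parental PD (1.24, adjusted p = 0.0193), and MET at 12.41, 11.18 and 12.85 in R1 PD, against 10.18, 10.32 and 10.14 in parental PD (1.93, adjusted p = 0.0273). The groups did not overlap in either, but neither passed over all arrays; EGFR passed without R1 PD replicate 3 (adjusted p = 0.00742). ERBB3 was at 11.18, 11.59 and 9.54 in R1 PD and 11.28, 11.18 and 11.88 in parental PD. These overlapped, with R1 PD replicate 3 lowest.

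In the insulin and IGF axis, 1 of 27 measured genes was higher and 6 were lower (22.2%, against 4.03% of all genes). Binding proteins that hold IGF outside the cell moved in opposite directions. IGFBP4 was at 6.0, 5.82 and 6.57 in R1 PD, against 9.59, 9.91 and 9.59 in parental PD (-3.57, SE 0.21, adjusted p = 0.000685), and IGFBP2 at 6.53, 6.51 and 6.45 in R1 PD, against 8.74, 8.70 and 9.07 in parental PD (-2.34, SE 0.12, adjusted p = 0.000457). IGFBP5 was at 10.36, 8.15 and 9.62 in R1 PD, against 5.38, 5.43 and 5.62 in parental PD (3.90, SE 0.54, adjusted p = 0.00691), and did not pass without R1 PD replicate 3 (adjusted p = 0.0127). The adaptor IRS1 (-2.02) and the PI3K subunits PIK3R3 (-1.46), PIK3R1 (-0.79) and PIK3CB (-0.62) were lower. The receptor IGF1R was at 12.08, 11.23 and 12.40 in R1 PD, against 10.43, 10.56 and 10.56 in parental PD; the groups did not overlap, and it did not pass (1.39, adjusted p = 0.026). INSR was at 6.56 to 7.45 in R1 PD and 6.60 to 7.13 in parental PD, and overlapped.

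Genes of the contractile cytoskeleton, many of them targets of SRF, made up the list with the largest share of higher genes. Of 28 measured members, 11 were higher in R1 PD (39.3%, against 3.05% of all genes) and none was lower, and the median was 1.113. In 22 of them every R1 PD array lay above every parental PD array, and in none below; over all genes 17.0% lay above. Beside MYL9 they included CALD1, which encodes caldesmon, at 11.15, 10.60 and 11.24 in R1 PD, against 7.25, 7.47 and 7.13 in parental PD (3.71, SE 0.19, adjusted p = 0.000474). TAGLN, which encodes the actin-binding protein transgelin, had 9.90, 8.81 and 10.19 in R1 PD, against 6.77, 7.05 and 6.71 in parental PD (2.79, SE 0.36, adjusted p = 0.00558). R1 PD replicate 2 was the lowest R1 array in each of these 3 genes. The actin crosslinkers ACTN1 (3.26) and ACTN4 (1.88), the tropomyosins TPM1 (3.17) and TPM2 (0.95), FHL2 (2.55), VCL (2.33), PDLIM5 (2.16) and ACTA2 (0.47) were the other higher members. SRF itself was at 9.05, 8.66 and 9.29 in R1 PD, against 7.98, 8.32 and 7.93 in parental PD, and did not pass (0.92, adjusted p = 0.0237). The smooth muscle genes CNN1 (0.02), MYH11 (0.02) and DES (-0.03) did not pass either, and the median over 9 smooth muscle markers was 5.45 to 6.39 in R1 PD and 4.87 to 4.93 in parental PD.

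SRF binds the CArG box, and 2 of the higher members had a match to it in a RefSeq promoter (250 bases before to 50 after a gene start, build GRCh38.p14, on the strand of the gene). These promoters, of ACTN1 at chr14:68977517-68977816 (minus strand) and of FHL2 at chr2:105399002-105399301 (minus strand), are shown because both genes were higher with the list, with the match in capitals:
ACTN1: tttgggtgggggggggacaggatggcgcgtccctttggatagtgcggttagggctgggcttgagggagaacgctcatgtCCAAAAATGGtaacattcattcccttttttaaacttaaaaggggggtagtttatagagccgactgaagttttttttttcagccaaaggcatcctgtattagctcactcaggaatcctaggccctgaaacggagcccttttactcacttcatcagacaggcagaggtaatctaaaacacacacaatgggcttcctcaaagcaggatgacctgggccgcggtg
FHL2: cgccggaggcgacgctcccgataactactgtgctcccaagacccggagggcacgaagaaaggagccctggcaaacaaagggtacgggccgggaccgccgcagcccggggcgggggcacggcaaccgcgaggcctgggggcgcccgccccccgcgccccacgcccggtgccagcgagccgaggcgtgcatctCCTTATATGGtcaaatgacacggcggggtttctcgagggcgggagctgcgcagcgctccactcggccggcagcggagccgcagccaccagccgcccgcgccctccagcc

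ACTN1 was at 13.81, 12.92 and 14.88 in R1 PD, against 10.46, 10.99 and 10.38 in parental PD (3.26, SE 0.49, adjusted p = 0.00901), and untreated parental cells, at 12.25 to 12.69, lay between. FHL2, a coactivator and target of SRF, was at 11.09, 10.99 and 10.16 in R1 PD, against 8.20, 8.49 and 7.90 in parental PD (2.55, SE 0.29, adjusted p = 0.00363). On either strand, a CArG box stood in the promoters of 8 of the 24 contractile genes that had a window (33.3%), and in those of 1.67% of the 15374 genes analysed that had one. The list was written to hold SRF targets, so its share follows in part from how it was chosen. Over all genes with a window, 14 of 527 higher ones (2.66%) and 12 of 643 lower ones (1.87%) held the box. Of all 35116 single windows 1.29% held it. The 8 were ACTG1, ACTG2, CNN2, MYLK, SRF and TPM4 beside ACTN1 and FHL2. Promoter windows were found for 9 of the 11 higher members, of which 2 had a match. ACTN1 had it in 1 of its 4 windows and FHL2 in 3 of 4, and the matching window with the lowest coordinate is the one shown. MYLK, the kinase of myosin light chains, has a match as well and was at 4.78 to 4.83 in R1 PD and 4.76 to 4.87 in parental PD, at the array medians. A match describes the sequence only, and no binding was measured.

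Of 22 measured targets of YAP and TAZ, 8 were higher (36.4%, against 3.05% of all genes) and none was lower, with a median of 1.067. CCN1, a secreted matrix protein and a direct target of YAP, was at 11.85, 11.11 and 9.99 in R1 PD, against 6.14, 7.26 and 6.43 in parental PD (4.37, SE 0.52, adjusted p = 0.00439). CRIM1, a membrane protein that binds growth factors, was at 13.98, 13.52 and 13.22 in R1 PD, against 9.99, 10.28 and 10.16 in parental PD (3.43, SE 0.20, adjusted p = 0.000673). CCDC80, AMOTL2 (1.69), ASAP1 (1.58), RBMS3 (1.42), DOCK5 (1.39) and LATS2 (1.08) were the others; AMOTL2 and LATS2 restrain YAP. CCN2 (2.40, adjusted p = 0.0383) did not pass. The genes of the regulators themselves differed less, YAP1 by 0.39 and WWTR1, which encodes TAZ, by 0.47, and neither passed. The letters GGAATG, a TEAD motif, were found on either strand in the promoters of 9 of the 16 measured targets with a window, in 95 of 527 genes that were higher (18.0%), in 82 of 643 that were lower (12.8%), and in 15.7% of the 15374 genes analysed that had a window. The AP-1 motif TGANTCA was found in 9.11% of the higher genes, 8.09% of the lower ones and 8.40% of those analysed.

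**Figure D2:**
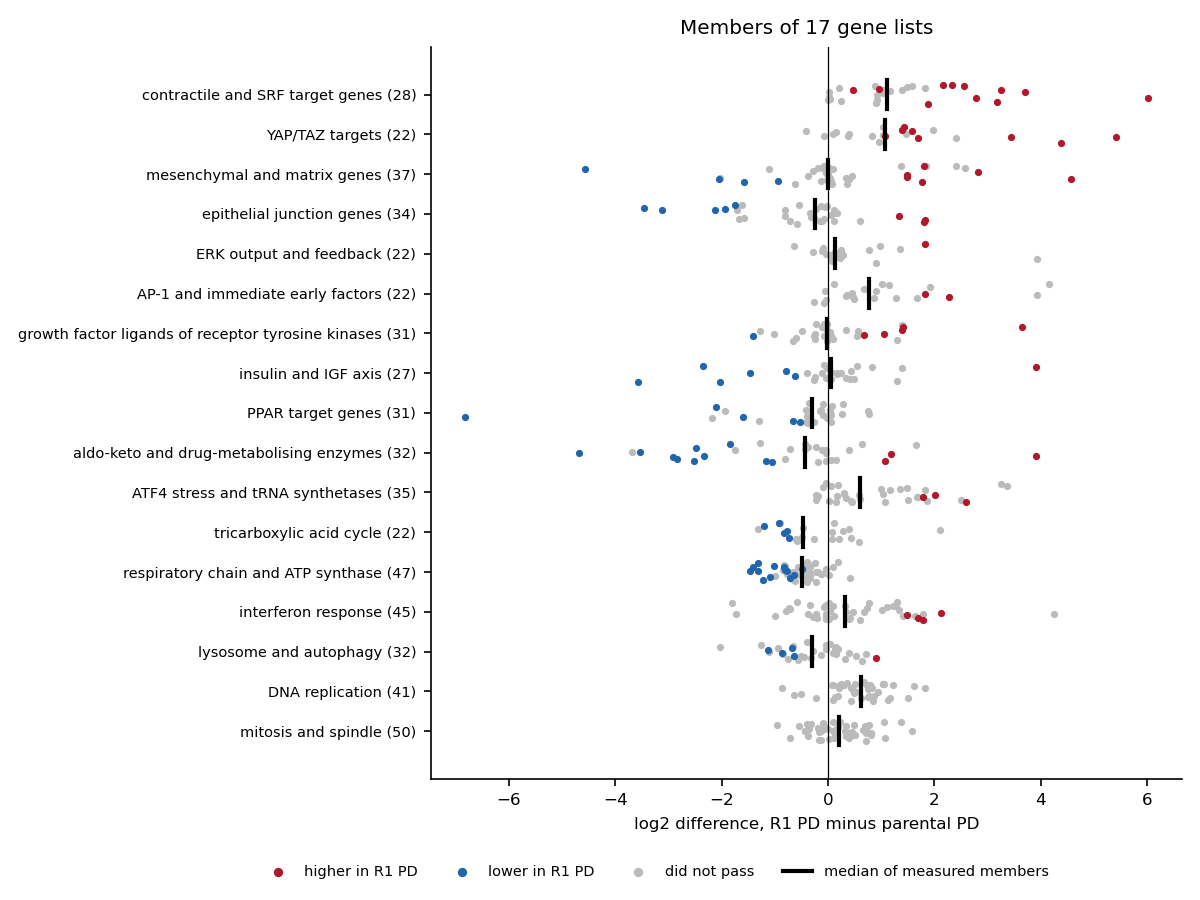
Each point is a measured member of 1 of 17 gene lists, with its log2 difference of R1 PD minus parental PD on the horizontal axis and the number of members in brackets. Red and blue points passed limma's test, grey points did not, and the bar is the median, highest in the contractile list (1.113) and the YAP/TAZ list (1.067) and lowest in the respiratory chain (-0.487).

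Matrix and mesenchymal genes moved in both directions. Of 37 measured, 6 were higher (FN1, TIMP3, POSTN, FBN1, LUM and DCN) and 4 were lower (MMP13, S100A4, PLAU and MMP1), 16.2% and 10.8% against 3.05% and 4.03% of all genes, and the median was 0.003. MMP13, a collagenase, was at 5.24, 6.09 and 5.46 in R1 PD, against 9.63, 10.14 and 10.72 in parental PD (-4.57, SE 0.34, adjusted p = 0.00111). S100A4, a calcium-binding protein often used as a mesenchymal marker, was at 5.16, 5.24 and 5.18 in R1 PD, against 7.56, 7.18 and 6.97 in parental PD (-2.04, SE 0.15, adjusted p = 0.00121). The intermediate filament gene VIM was low in all cells, at 5.42 to 5.79 in R1 PD and 5.57 to 5.81 in parental PD. CDH2, which encodes N-cadherin, was at 7.31, 7.58 and 10.40 in R1 PD, against 6.68, 6.68 and 6.41 in parental PD, and did not pass (1.84, adjusted p = 0.188), with R1 PD replicate 3 far above the other 2. Of 10 EMT transcription factors only SNAI2, the repressor slug, was higher, at 11.51, 11.09 and 11.43 in R1 PD, against 8.14, 9.41 and 8.53 in parental PD (2.65, SE 0.33, adjusted p = 0.00502).

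Of 26 collagen chains, 3 were higher, COL12A1 (3.29), COL4A3 (1.45) and COL4A4 (1.16), and of 20 integrin subunits 3 were higher, the fibronectin receptor subunit ITGA5 (1.64), ITGB6 (1.49) and ITGA3 (1.31), with none lower in either list. Without R1 PD replicate 3, COL4A4 and ITGA3 did not pass (adjusted p = 0.0139 and 0.0102). Of 10 fibroblast markers, POSTN, LUM and DCN were higher and none was lower, while COL1A1 (0.40), COL1A2 (0.06), PDGFRA (-0.06) and PDGFRB (0.03) did not pass. The median of these markers was 5.15 to 5.50 in R1 PD and 4.61 to 4.68 in parental PD. LUM, a small proteoglycan, was high on both sides, at 13.79, 13.47 and 13.03 in R1 PD, against 12.01, 11.92 and 11.90 in parental PD. Whether other cells took part in these differences was not tested. In the TGF-beta list, INHBA, which encodes the activin A subunit, was at 8.88, 8.05 and 8.32 in R1 PD, against 5.05, 4.92 and 5.10 in parental PD (3.39, SE 0.21, adjusted p = 0.000803), and TGFBR2 (1.50) and SMAD3 (1.15) were higher as well, while LTBP2 (-1.08) and FST (-0.53) were lower.

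Epithelial junction genes were split. Of 34 measured, 5 were lower (14.7%, against 4.03% of all genes) and 3 were higher (8.82%, against 3.05%). EPCAM, an epithelial adhesion molecule, was at 10.59, 10.97 and 10.92 in R1 PD, against 12.88, 12.68 and 12.75 in parental PD (-1.94, SE 0.12, adjusted p = 0.00081). CXADR, a tight junction receptor, was at 9.82, 10.21 and 9.41 in R1 PD, against 13.28, 13.07 and 13.43 in parental PD (-3.45, SE 0.22, adjusted p = 0.000803). The claudins CLDN1 (-3.12) and CLDN7 (-2.12) and the protease ST14 (-1.74) were the other lower members. In the opposite direction were PKP2 (1.80) and DSP (1.82), which anchor desmosomes to keratin, and TJP1 (1.34), the tight junction scaffold. CDH1, which encodes E-cadherin, was at 14.14 to 14.24 in R1 PD and 13.93 to 14.34 in parental PD, and overlapped. Among 16 keratins, KRT4 (-3.61) and KRT23 (-1.25) were lower and KRT18 (1.03) and KRT8 (0.89) were higher, 12.5% of the list in each direction. Without R1 PD replicate 3, KRT18, KRT8 and KRT23 did not pass (adjusted p = 0.0118, 0.0156 and 0.0169).

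**Figure D3:**
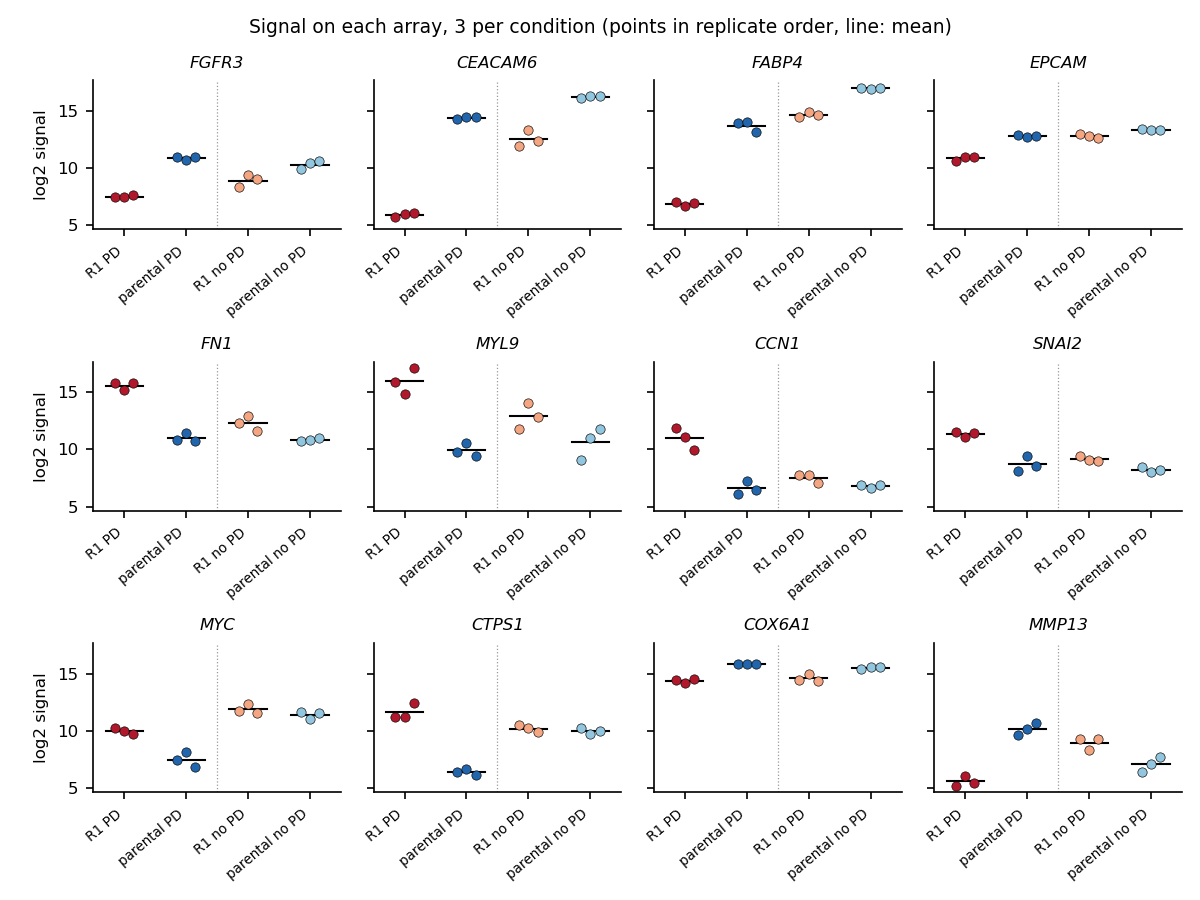
Each point is the log2 signal of 1 array for 12 genes, with 3 arrays each of R1 PD, parental PD, R1 no PD and parental no PD from left to right, and the line is the mean of the 3. FGFR3, CEACAM6, FABP4 and EPCAM were lowest in R1 PD, FN1, MYL9, CCN1 and SNAI2 were highest there, and MYC and CTPS1 were lowest in parental PD.

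Of 8 measured factors of urothelial differentiation 1 was lower, FOXA1 (12.5%, against 4.03% of all genes). It was at 8.74, 9.18 and 8.13 in R1 PD, against 10.27, 10.42 and 10.42 in parental PD (-1.69, SE 0.26, adjusted p = 0.0095). GATA3 (0.43, adjusted p = 0.392) did not pass. PPARG was at 8.90, 9.09 and 8.58 in R1 PD, against 9.30, 9.24 and 9.09 in parental PD, which met at 9.09, and did not pass (-0.35, adjusted p = 0.161). Of 11 genes of uroplakins and umbrella cells, SNX31 (-2.92) and the protease TMPRSS2 (-1.67) were lower (18.2%) and none was higher. The median of these 11 was 1.307 above untreated cells in parental PD and 0.057 above them in R1 PD, 2 comparisons that share the untreated arrays.

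Of 31 measured targets of the PPAR receptors, 5 were lower (16.1%, against 4.03% of all genes) and none was higher: FABP4, ACADM, UCP2, PPARGC1B and PLIN4. ACADM, which starts the oxidation of medium-chain fatty acids, was at 9.51, 10.01 and 9.29 in R1 PD, against 11.80, 11.50 and 11.85 in parental PD (-2.11, SE 0.21, adjusted p = 0.00248). UCP2, a mitochondrial carrier, was at 6.65, 7.04 and 6.57 in R1 PD, against 8.25, 8.25 and 8.52 in parental PD (-1.59, SE 0.15, adjusted p = 0.00236). In untreated cells, ACADM (10.30 to 10.67) and UCP2 (6.02 to 6.45) lay below the parental PD arrays.

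Enzymes that process drugs, steroids and aldehydes were the list with the largest share of lower genes. Of 32 measured, 10 were lower (31.2%, against 4.03% of all genes) and 3 were higher. The aldo-keto reductases AKR1C1 (-2.48), AKR1C2 (-2.92) and AKR1C3 (-2.52), which are near-identical in sequence and may share probes, fell together, with AKR1C2 at 8.39, 8.32 and 8.65 in R1 PD, against 11.36, 11.19 and 11.56 in parental PD. CYP24A1, which breaks down vitamin D, was at 5.83, 6.59 and 6.30 in R1 PD, against 10.92, 11.17 and 10.64 in parental PD (-4.67, SE 0.23, adjusted p = 0.000457). CYP2J2 (-3.53), the efflux pump ABCG2 (-2.83), ALDH3A1 (-2.33), ABCC4 (-1.85), ALDH3A2 (-1.16) and CYP3A4 (-1.05) were also lower. SULT1E1, which inactivates oestrogen by sulphation, was higher, at 11.37, 10.26 and 11.72 in R1 PD, against 6.69, 7.53 and 7.44 in parental PD (3.90, SE 0.43, adjusted p = 0.00342), as were the efflux pumps ABCC3 (1.18) and ABCC1 (1.08).

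Among 32 genes of glutathione and of defence against oxidation, 5 were higher and 4 lower (15.6% and 12.5%, against 3.05% and 4.03% of all genes). NQO1, a quinone reductase that NRF2 induces, was at 12.68, 12.53 and 12.81 in R1 PD, against 14.94, 14.84 and 15.11 in parental PD (-2.29, SE 0.11, adjusted p = 0.000457), and GPX2 (-4.79), GCLC (-1.62) and GSTA1 (-0.98) were lower too. SLC7A11, the cystine importer, was at 8.28, 9.45 and 9.12 in R1 PD, against 6.56, 6.32 and 6.19 in parental PD (2.59, SE 0.30, adjusted p = 0.00413), and GPX8 (2.09), HMOX1 (1.56), TXNRD1 (1.54) and PRDX6 (1.03) were higher. GPX4, which guards membranes against lipid peroxidation, was at 13.72, 13.81 and 13.50 in R1 PD, against 12.86, 13.09 and 13.00 in parental PD, without overlap, and missed the threshold (0.69, adjusted p = 0.0107).

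Of 47 subunits of the respiratory chain and ATP synthase, 13 were lower in R1 PD (27.7%, against 4.03% of all genes) and none was higher, the median was -0.487, and 31 lay wholly below the parental PD arrays and none above, against 20.3% and 17.0% of all genes. COX6A1, a subunit of cytochrome c oxidase, was at 14.42, 14.21 and 14.53 in R1 PD, against 15.87, 15.81 and 15.85 in parental PD (-1.46, SE 0.10, adjusted p = 0.000894). COX5B, of the same enzyme, was at 7.63, 7.53 and 7.60 in R1 PD, against 8.95, 8.97 and 8.79 in parental PD (-1.32, SE 0.08, adjusted p = 0.000734). NDUFB5 (-1.31) of complex I, CYC1 (-1.40) of complex III and ATP5F1B (-1.23) of ATP synthase were lower as well. In the tricarboxylic acid cycle 5 of 22 (22.7%) were lower (SDHD, DLD, IDH3B, PDHB and MDH2, between -1.20 and -0.73) and none was higher. In glycolysis and hypoxia, 1 of 32 was higher (3.12%, against 3.05% of all genes), the glucose transporter SLC2A3 (2.19). LDHB (-1.69), P4HA1 (-1.36) and HK1 (-1.25) were the 3 lower ones (9.38%, against 4.03%).

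The 24 h treatment had lowered most genes of several lists against untreated parental cells, where 13.2% of all genes were lower. Among them were 36 of 46 genes of MYC and ribosome biogenesis and 21 of 35 of the ATF4 stress response. So were 39 of 41 genes of DNA replication, 35 of 50 of mitosis, 23 of 28 proteasome subunits and 17 of 23 genes of cholesterol synthesis. MYC was at 10.29, 10.03 and 9.72 in R1 PD, against 7.46, 8.15 and 6.89 in parental PD (2.51, SE 0.33, adjusted p = 0.00608), with R1 no PD at 11.54 to 12.38 and untreated parental cells at 11.08 to 11.65. Of 46 genes of MYC and ribosome biogenesis, 5 were higher (10.9%) and 1 was lower, with a median of 0.222. Of 35 genes of the ATF4 stress response and tRNA synthetases, 3 were higher (8.57%, against 3.05% of all genes) and none was lower, with a median of 0.597, and 21 lay wholly above the parental PD arrays, as did 17.0% of all genes. ASNS, which makes asparagine, was at 7.14, 8.43 and 7.91 in R1 PD, against 5.73, 5.86 and 5.83 in parental PD (2.02, SE 0.31, adjusted p = 0.00978). The call of ASNS was lost without R1 PD replicate 3 (adjusted p = 0.0183). The tRNA synthetase IARS1 (1.79) and SLC7A11 were the others, and the transporter SLC7A5 (3.37, adjusted p = 0.0128) did not pass.

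Genes of mitosis and DNA replication did not pass in either direction, and the R1 PD arrays were unlike each other in them. None of 50 genes of mitosis and none of 41 of DNA replication passed. The median level of the mitosis genes was 10.01, 8.26 and 12.47 in R1 PD replicates 1, 2 and 3, against 10.07, 10.44 and 9.39 in parental PD, and 11.20 to 11.32 in R1 no PD and 11.17 to 11.28 in parental no PD. MKI67, the Ki-67 antigen of dividing cells, followed the same order, at 12.14, 9.77 and 14.29 in R1 PD, against 11.53, 12.30 and 10.91 in parental PD (0.49, SE 1.12, adjusted p = 0.818). TOP2A, the topoisomerase of dividing cells, was at 13.13, 10.97 and 15.47 in R1 PD, against 13.63, 14.02 and 13.06 in parental PD. The replication genes had medians of 7.92, 7.88 and 10.05 in R1 PD, against 8.10, 8.27 and 7.30 in parental PD, and a median difference of 0.623. Of these 41 genes, 8 lay wholly above the parental PD arrays and 2 wholly below, against 17.0% and 20.3% of all genes. Replicate 3 was thus the highest R1 PD array in both lists and the lowest in EGR1 and DUSP1. Of 22 cyclins and inhibitors, SKP2 (1.85), which marks CDK inhibitors for destruction, and CDKN1B (0.76), which encodes the inhibitor p27, were higher (9.09%, against 3.05% of all genes).

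**Figure D4:**
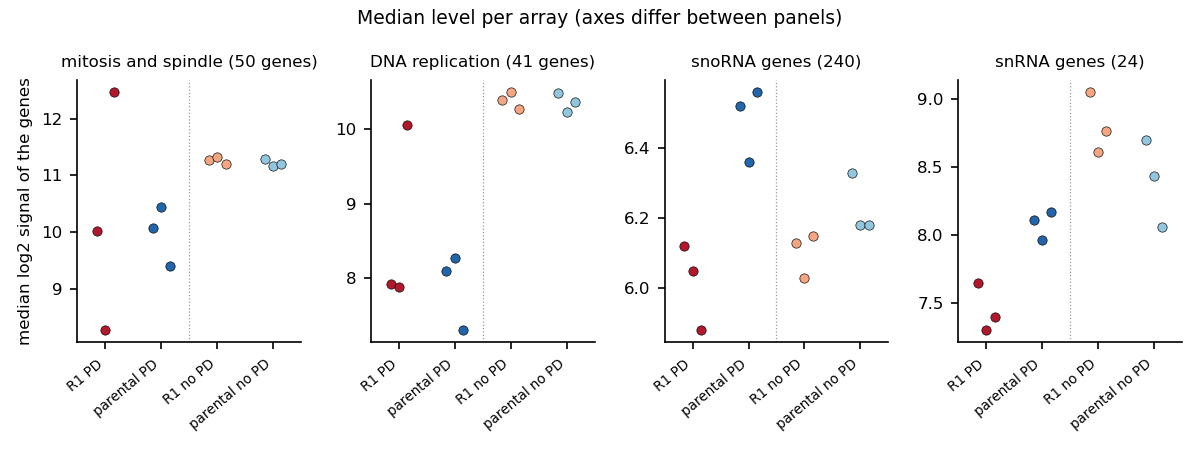
Each point is the median log2 signal of a group of genes on 1 array, for 50 mitosis genes, 41 DNA replication genes, 240 snoRNA genes and 24 snRNA genes, with the 4 conditions from left to right and an axis of its own in each panel. The 3 R1 PD arrays run from 8.26 to 12.47 in the mitosis genes, while all 3 lie below the parental PD arrays in both classes of small RNA.

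In the interferon response, 4 of 45 measured genes were higher (8.89%, against 3.05% of all genes) and none was lower. Without R1 PD replicate 3, 9 were higher, in the fit with 927 higher genes in place of 684. The 4 that passed over all arrays were EPSTI1, IFITM2, IFITM3 and GBP1, between 1.48 and 2.13. IFITM3, which blocks viral entry, was at 13.51, 13.44 and 12.87 in R1 PD, against 11.36, 11.64 and 11.74 in parental PD (1.69, SE 0.20, adjusted p = 0.00414), with R1 no PD at 10.26 to 10.81 and untreated parental cells at 9.57 to 9.98. IFI6 was at 14.65, 16.78 and 13.69 in R1 PD, against 11.15, 11.09 and 10.15 in parental PD, and did not pass (adjusted p = 0.0178). Against untreated cells the median of the list was 1.09 in R1 PD and 0.963 in parental PD, and both comparisons share the untreated arrays. After 24 h, 27 of the 45 genes were higher than in untreated cells, where 11.4% of all genes were. In antigen processing, PSMB8 (-0.91) and ERAP2 (-0.99) were the 2 lower of 21 genes (9.52%, against 4.03% of all genes) and none was higher. Without R1 PD replicate 3, 4 were lower, in the fit with 976 lower genes in place of 903. No class II gene of 14 passed.

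Of 48 chromatin modifiers, 3 were higher (6.25%, against 3.05% of all genes), KDM6A (1.33), KDM2A (0.94) and DOT1L (0.94). HDAC1 (-0.69) was lower (2.08%, against 4.03% of all genes). Without R1 PD replicate 3, 6 were higher and 2 lower, in the fit where 927 and 976 of all 22411 genes were. KDM6A, a histone H3K27 demethylase often mutated in bladder cancer, was at 11.39, 11.00 and 11.65 in R1 PD, against 9.80, 10.22 and 10.04 in parental PD, and at 9.29 to 9.40 in untreated cells. Of 32 lysosomal and autophagy genes, 4 were lower (12.5%) and 1, the autophagy kinase ULK1 (0.91), was higher (3.12%). In the Notch pathway the receptor NOTCH1 (-1.26), its ligand JAG1 (-1.92) and its target HEY1 (-0.74) were lower. In the WNT pathway the receptor FZD7 (1.31) and the inhibitors SFRP1 (1.98) and DKK3 (1.16) were higher and RNF43 (-0.87) was lower. Of the 35 genes of both pathways 3 were higher (8.57%) and 4 lower (11.4%), and 5 were higher without R1 PD replicate 3. The inhibitors of coagulation TFPI (-4.13) and THBD (-1.39) were lower, with TFPI at 7.08, 6.46 and 6.23 in R1 PD, against 10.55, 10.76 and 10.84 in parental PD.

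Of 240 snoRNA genes, 26 were lower and none was higher, with a median of -0.39, where 4.03% of all genes were lower. Of these 240, 95 lay wholly below the parental PD arrays and 10 wholly above, against 20.3% and 17.0% of all genes. Of 24 snRNA genes, 9 were lower and none was higher, and 14 lay wholly below the parental PD arrays. SNORA23, which guides pseudouridylation of ribosomal RNA, was at 9.63, 9.64 and 8.94 in R1 PD, against 12.89, 13.59 and 13.24 in parental PD (-3.84, SE 0.26, adjusted p = 0.000894). SNORD3A, the U3 RNA that processes the ribosomal precursor, was at 14.37, 14.16 and 14.27 in R1 PD, against 16.70, 16.40 and 16.81 in parental PD (-2.37, SE 0.13, adjusted p = 0.000501). The spliceosomal RNU4ATAC was at 12.56, 12.97 and 12.19 in R1 PD, against 15.51, 15.76 and 15.61 in parental PD (-3.05, SE 0.20, adjusted p = 0.000884). The groups did not overlap in any of the 3.

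The median snoRNA level was 6.12, 6.05 and 5.88 in R1 PD, against 6.52, 6.36 and 6.56 in parental PD, and 6.03 to 6.15 in R1 no PD and 6.18 to 6.33 in untreated cells. After 24 h, 57 snoRNA genes were higher and 3 were lower than in untreated cells, while 11.4% of all genes were higher there. Of 73 loci named as U6 copies 29 were lower and none was higher, but the copies are alike in sequence and cannot be told apart by such probes.

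Of 1041 miRNA hairpins, only 3 were higher and 2 were lower, smaller shares than the 3.05% and 4.03% of all genes. The mature sequences made from them are shown because they identify the products, from RefSeq (GRCh38.p14), with the seed (bases 2 to 8) in capitals:
hsa-miR-181b-5p (MIR181B1): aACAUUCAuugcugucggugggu
hsa-miR-181b-3p (MIR181B1): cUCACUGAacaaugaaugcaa
hsa-miR-502-5p (MIR502): aUCCUUGCuaucugggugcua
hsa-miR-502-3p (MIR502): aAUGCACCugggcaaggauuca
hsa-miR-622 (MIR622): aCAGUCUGcugagguuggagc
hsa-miR-4478 (MIR4478): gAGGCUGAgcugaggag
hsa-miR-4489 (MIR4489): uGGGGCUAgugaugcaggacg

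MIR181B1, at chr1:198858873-198858982 within the long non-coding gene MIR181A1HG, was at 7.10, 7.40 and 7.13 in R1 PD, against 5.32, 5.96 and 5.70 in parental PD (1.55, SE 0.18, adjusted p = 0.00409). MIR181B2 on chromosome 9 was at 6.92, 6.19 and 6.20 in R1 PD, against 4.44, 4.90 and 5.41 in parental PD, without overlap and without passing (1.52, adjusted p = 0.0227). The seed of miR-181b-5p is shared by MIR181A1, MIR181A2, MIR181C and MIR181D, which differed by 0.27, 0.26, 0.13 and 0.23 and did not pass. Neither MIR181A1HG (0.31, adjusted p = 0.148) nor CLCN5 (0.16, adjusted p = 0.481), the gene that spans MIR502, passed.

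MIR622, at chr13:90231182-90231277, was at 16.48, 16.25 and 16.47 in R1 PD, against 15.04, 15.17 and 14.86 in parental PD (1.38, SE 0.11, adjusted p = 0.00158). Its hairpin lies inside KRT18P27 (chr13:90230331-90231737), a pseudogene of the keratin gene KRT18, which was at 16.87, 16.59 and 16.76 in R1 PD, against 15.60, 15.97 and 15.56 in parental PD (1.03, SE 0.14, adjusted p = 0.00658). Whether KRT18 mRNA gave part of the MIR622 signal was not tested, since probe sequences were not used here. The array measures RNA from the hairpin locus, and mature miRNAs were not measured apart from it.

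Out of drug, R1 differed from parental cells by 171 higher (0.763%) and 153 lower genes (0.683%), 1.45% of all. Whether the difference between R1 and parental cells itself changed with drug was tested over all 12 arrays. It was higher in drug for 363 genes (1.62%) and lower for 329 (1.47%), which together are 3.09% of the genes. Of the 684 genes higher in R1 PD, 282 had a difference that was higher in drug and 1 a difference that was lower. Of the 903 lower genes, 241 had a difference that was lower in drug and none a higher one. The test shares its arrays in drug with the calls.

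HSD3B1 had the largest positive change (6.78, adjusted p = 0.000501), with a difference between R1 and parental cells of 8.52 in drug and 1.75 out of drug. EDNRB was at 9.83, 8.82 and 10.51 in R1 PD, against 4.58, 4.55 and 4.78 in parental PD, and at 4.52 to 4.65 in R1 no PD, against 4.42 to 4.77 in parental no PD. CLCA2, an epithelial surface protein, had the largest negative one (-6.48, adjusted p = 1.1e-05). It was at 5.50, 6.02 and 5.64 in R1 PD, against 10.04, 10.23 and 10.23 in parental PD, and at 11.37, 10.62 and 10.29 in R1 no PD, against 8.64, 8.59 and 8.95 in parental no PD, so that R1 was below parental cells in drug and above them out of drug. MMP13, the cathepsin CTSC and the kallikrein KLK6 had the same order, except that KLK6 in drug (-1.72, adjusted p = 0.0761) did not pass.

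LCP1 was an example of the opposite kind. Its difference between R1 and parental cells was 5.03 in drug and 4.60 out of drug, and the change did not pass (0.43, adjusted p = 0.68). EPGN (3.64 and 2.99) and DHRS2 (-5.71 and -4.88) likewise kept most of their difference out of drug. FGFR3 kept less, -3.35 in drug and -1.40 out of drug, and the change of -1.96 passed (adjusted p = 0.0083).

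**Figure D5:**
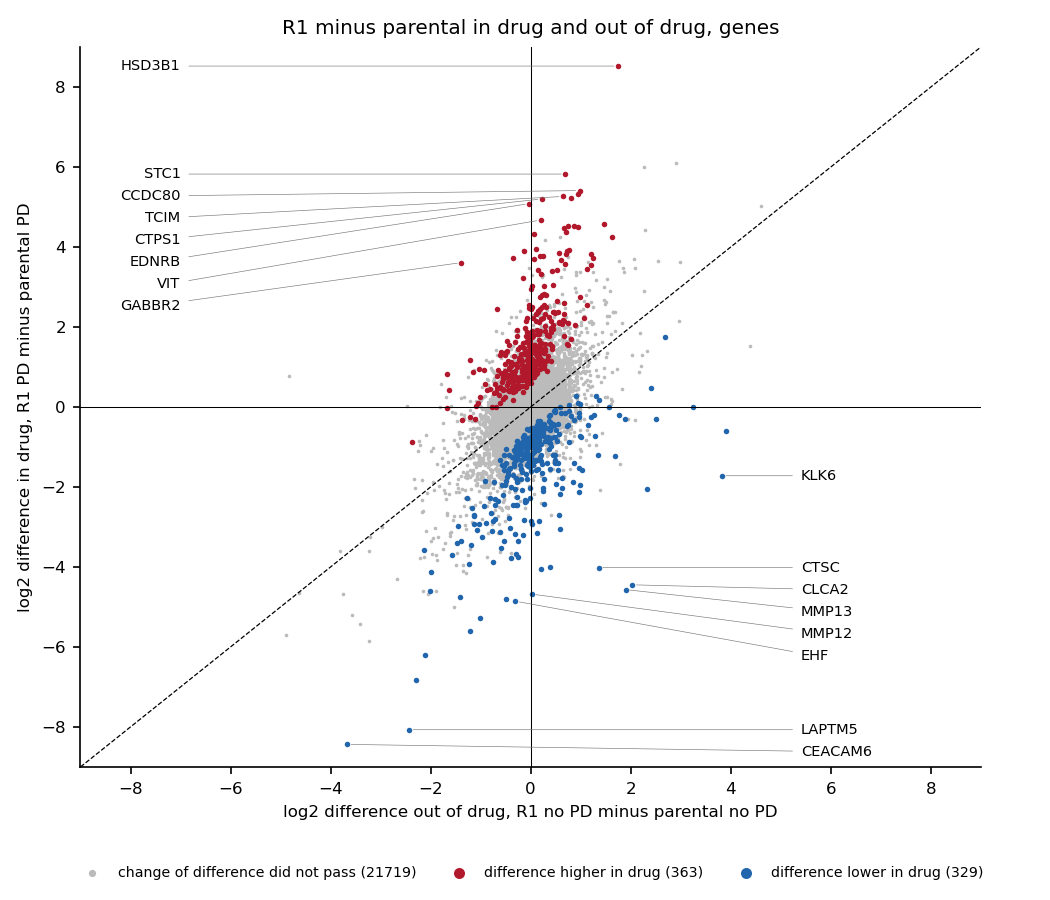
Each point is a gene, with the log2 difference of R1 minus parental cells out of drug on the horizontal axis and in drug on the vertical axis, and the dashed line marks equal differences. The 363 genes whose difference was higher in drug (red) and the 329 whose difference was lower (blue) in a test over 12 arrays are coloured, and the 8 largest changes in each direction are named, HSD3B1 at 6.78 and CLCA2 at -6.48 among them.

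Comparisons that use none of the 6 arrays were set beside these differences as a description. Across the 22411 genes, which are not independent replicates, Pearson's r with the difference of R1 no PD from parental no PD was 0.471 (Spearman's rho 0.271). It was 0.443 (rho 0.112) with the difference from untreated parental cells of R2, another derivative of RT112, in 2 µM drug, 0.148 with R3, a derivative with a HRAS mutation, where rho had the opposite sign (-0.0906), and 0.152 (rho 0.05) with the RT4 line's derivative against its own parent. Of the 684 higher genes 375 were also higher in R2 against untreated cells (54.8% of these and 18.4% of the 2039 higher there, which are 9.10% of all genes), and 39 were lower there. Of the 903 lower genes 333 were also lower in R2 (36.9% of these and 16.6% of the 2000 lower there, 8.92% of all genes). R3 shared 41 higher and 46 lower genes, 5.99% and 5.09% of those in R1 PD and 20.3% and 19.4% of those in R3, where 0.901% of all genes were higher and 1.06% lower. Of the 15 largest rises, all 15 were higher in R2 and 2 in R3, and of the 15 largest falls 14 were lower in R2 and 4 in R3.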

How the data were processed

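The series holds 33 Affymetrix Human Transcriptome Array 2.0 arrays of RT112 and RT4 cells. The authors deposited log2 signals, 1 per probe set and array. Per the labels RMA was run in Affymetrix Expression Console, whereas the methods give the rma_sketch workflow of Affymetrix Power Tools. The quantile step of RMA gives arrays like distributions, so a shift of most genes together would not be seen. The platform annotation gives 1 gene symbol to 23781 of the 67528 transcript clusters among 70523 probe sets. Clusters with several symbols (1543) or none (42204) were not used. Where a symbol had more than 1 probe set (528 symbols), that of highest mean signal on the 24 RT112 arrays stood for it, and 249 symbols were updated through RefSeq, which gave 22411 genes. No further normalization or filter was applied.

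Groups were taken from the sample titles. Each pair of conditions was fitted with limma 3.58.1 (lmFit and eBayes, 3 arrays against 3; R 4.3.3). P-values were adjusted by Benjamini-Hochberg across the 22411 genes and called at 0.01, as the study's methods state. Every adjusted p in the text is from limma. The change of the difference between R1 and parental cells with drug was a contrast in 1 fit of 12 arrays. The number of arrays limits the precision. The 50 gene lists held 1286 genes, of which 1185 were measured, with 82 higher and 89 lower in R1 PD; 602 of the 684 higher and 814 of the 903 lower genes were in no list. The comparison, the lists and the rule for named genes were chosen with earlier results of these data known, and so support nothing on their own.

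Named were the 15 largest rises and falls with official symbols, up to 4 members of each list (or the largest if none passed), genes the study's text names, the 8 largest changes with drug in each direction, and up to 4 MIR, LINC and SNOR symbols in each direction, 189 genes in all. Other genes were named after their values were seen, among them EGR1, DUSP1, DUSP6, MKI67, TOP2A, IFI6, FHL2, SRF, MYLK, KRT18, SNORD3A, RNU4ATAC, and further list members given with their difference alone. Promoters and mature miRNAs are from RefSeq (GRCh38.p14). The procedure was tested on simulated data. Alternatives were 1 fit over 24 arrays, a trended and robust prior (statmod 1.5.0), genes above the 30th percentile of mean level, quantile normalization again, median centring, a replicate block, leaving out each array, the methods' t-test, a difference of at least 1, every probe set and a threshold of 0.05.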

Additional observations from a re-analysis of the deposited data

Results flagged for a closer look

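The difference between R1 and parental cells was not the same in drug and out of drug for 363 genes where it was higher in drug and 329 where it was lower, by a test of the change itself in limma over 12 arrays. The 8 largest positive changes were in HSD3B1 (6.78), STC1 (5.13), EDNRB (5.12), GABBR2 (4.99), CTPS1 (4.98), TCIM (4.61), VIT (4.47) and CCDC80 (4.43). GABBR2, a subunit of the GABA B receptor, was higher in R1 PD at 13.38, 13.81 and 12.97, against 9.82, 10.26 and 9.25 in parental PD, and lay lower in R1 no PD at 8.48, 9.15 and 8.59, against 9.71, 10.24 and 10.42 in parental no PD. CTPS1 is on the list through parental PD, at 6.12 to 6.68, while the other 3 conditions lay between 9.78 and 12.40.

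The 8 largest negative changes were in CLCA2 (-6.48), MMP13 (-6.46), LAPTM5 (-5.64), KLK6 (-5.54), CTSC (-5.38), CEACAM6 (-4.77), MMP12 (-4.71) and EHF (-4.55). In LAPTM5 and CEACAM6 the R1 cells out of drug had regained much of the signal, with LAPTM5 at 11.47 to 12.37 and CEACAM6 at 11.93 to 13.29 in R1 no PD, against 13.94 to 14.86 and 16.08 to 16.28 in parental no PD. KLK6 was at 12.93, 12.49 and 12.23 in R1 no PD, against 9.26, 8.30 and 8.63 in parental no PD, and at 7.46, 7.85 and 8.41 in R1 PD, against 9.63, 10.62 and 8.63 in parental PD.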

How the results depend on the processing

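The 684 higher and 903 lower genes became 1827 and 2241 in 1 fit over 24 arrays, 1832 and 2290 at a threshold of 0.05, 410 and 493 with a difference of at least 1, 2842 and 3515 in the methods' t-test at an unadjusted 0.05, 34 and 88 in it after Benjamini-Hochberg at 0.01, and 0 and 1 with a replicate block. Unadjusted, 7080 genes had p under 0.05 in limma. Leaving out 1 array gave 72 to 927 higher and 141 to 976 lower genes, so the count of calls is not well fixed by 3 arrays. With the other alternatives both counts stayed within 1.5 times. List members (82 higher, 89 lower) became 168 and 169 over 24 arrays, 0 and 0 with the replicate block, and 10 to 111 and 22 to 101 with 1 array left out. Whether the replicate numbers pair the samples is not known. Deviations of same-numbered arrays from their group means correlated at -0.08, -0.271 and -0.372, and those of differently numbered arrays at -0.089 to 0.36. Deviations from a mean of 3 arrays depend on each other, so these values cannot settle it. Named genes were run in the 24-array fit, the trended prior, the level filter, both renormalizations, the block and the leave-one-out fits, and none that passed changed direction in these. Many lost their call, however. The 207 named genes include genes that had not passed in the main fit and so had no call to lose. With the replicate block, where 0 higher and 1 lower gene passed over all genes, 164 named genes lost their call. Leaving out parental PD replicates 1, 2 and 3 in turn cost 123, 94 and 117 calls, and leaving out R1 PD replicates 1, 2 and 3 cost 108, 50 and 17. The change with drug (363 and 329 genes) became 648 and 522 over 24 arrays, 237 and 205 with the replicate block, and 167 to 609 and 149 to 382 with 1 array left out. Spearman's rho in place of Pearson's r was 0.271 for R1 out of drug, 0.112 for R2, -0.0906 for R3, which reversed it, and 0.05 for RT4 R1, and above the 30th percentile of level r was 0.505 for R1 out of drug and 0.168 for R3. The causes were not tested. Signals near the array medians limit what a fall can show.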
